A study of Mus musculus with 48 samples.

Results

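Livers of mice given the gapmer oligonucleotide LX-A3928 were compared between 72 h and 24 h after the first administration. All samples labelled LX-A3928 72h (4 libraries) and LX-A3928 24h (4 libraries) were taken, 8 of the 48 libraries of the series. The study gave mice 1 of 3 modified gapmers directed against Scarb1 (LX-A1656, LX-A2003 or LX-A3928) or PBS as vehicle, and collected liver at 24 h, 72 h and 168 h. PBS livers and livers given LX-A1656 or LX-A2003 at the same times, 4 libraries a group, are used here for reference. The sources used here do not give the dose, the number of administrations by each time, strain, sex, age, hour of collection, or the sequence and chemistry of LX-A3928. The labels number the replicates without naming animals. P-values therefore cover the spread among these libraries, part of which may be technical.

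A gapmer is a short strand with a DNA centre and chemically modified ends, and RNase H cleaves the RNA that it pairs with. Scarb1 encodes scavenger receptor class B type 1, through which hepatocytes take up cholesterol from HDL. Liver cells also make cholesterol through the mevalonate pathway, whose genes are induced by the transcription factor SREBP2 when cell sterol is low. In the integrated stress response, phosphorylation of eIF2-alpha raises translation of ATF4, which induces genes for amino acid synthesis and secreted hormones such as FGF21. The amplicon kit read a designed fragment of each gene, so a value describes that fragment, and the sources used here do not place it relative to the oligonucleotide site.

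The LX-A3928 libraries held 9664374 to 17191129 counts, and 12672 genes were tested. The 6 hepatocyte markers tested summed to between 64860 and 95000 CPM at 72 h and between 56410 and 61340 CPM at 24 h (CPM is the count scaled to library size with TMM factors), and none of them was called changed. Replicate 4 of the 72 h group stood apart from the other libraries of that group. Its chi-square per degree of freedom against them was 47.65 to 55.16, while the other pairs of the group had 11.71 to 20.66. It held 89.8 CPM of the nuclear RNA Neat1, against 922, 1052 and 927 CPM in replicates 1 to 3, and its albumin level (Alb) was 57903 CPM, against 35761, 39047 and 36829 CPM. Where the call of a gene named below was lost without this library, that is stated beside it or in the count for its list.

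Scarb1 was lower at 72 h than at 24 h. It measured 10.7, 6.75, 8.31 and 5.59 CPM in the LX-A3928 livers at 72 h, against 38.7, 56.2, 56.8 and 40.6 CPM at 24 h. All 4 libraries at 72 h lay below all 4 at 24 h, and the group mean at 72 h was 16.3% of that at 24 h. The log2 change was -2.60 ± 0.232 (SE; adjusted p = 5.65e-11, edgeR quasi-likelihood F test, Benjamini-Hochberg adjusted over the 12672 genes, as for every adjusted p here). In PBS livers Scarb1 ranged from 293 to 315 CPM at 72 h and from 236 to 291 CPM at 24 h, and the LX-A3928 means were 2.57% of the PBS mean at 72 h and 17.7% at 24 h. The change over time differed from that of PBS livers by -2.76 ± 0.309 (adjusted p = 9.40e-08). It differed from that of LX-A1656 livers by -1.35 ± 0.335 (adjusted p = 0.00237), in which Scarb1 averaged 4.42 CPM at 72 h and 10.6 CPM at 24 h. Against LX-A2003 livers, which averaged 5.59 CPM at 72 h and 23.0 CPM at 24 h, the difference was -0.54 ± 0.325 and was not called.

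**Figure D1:**
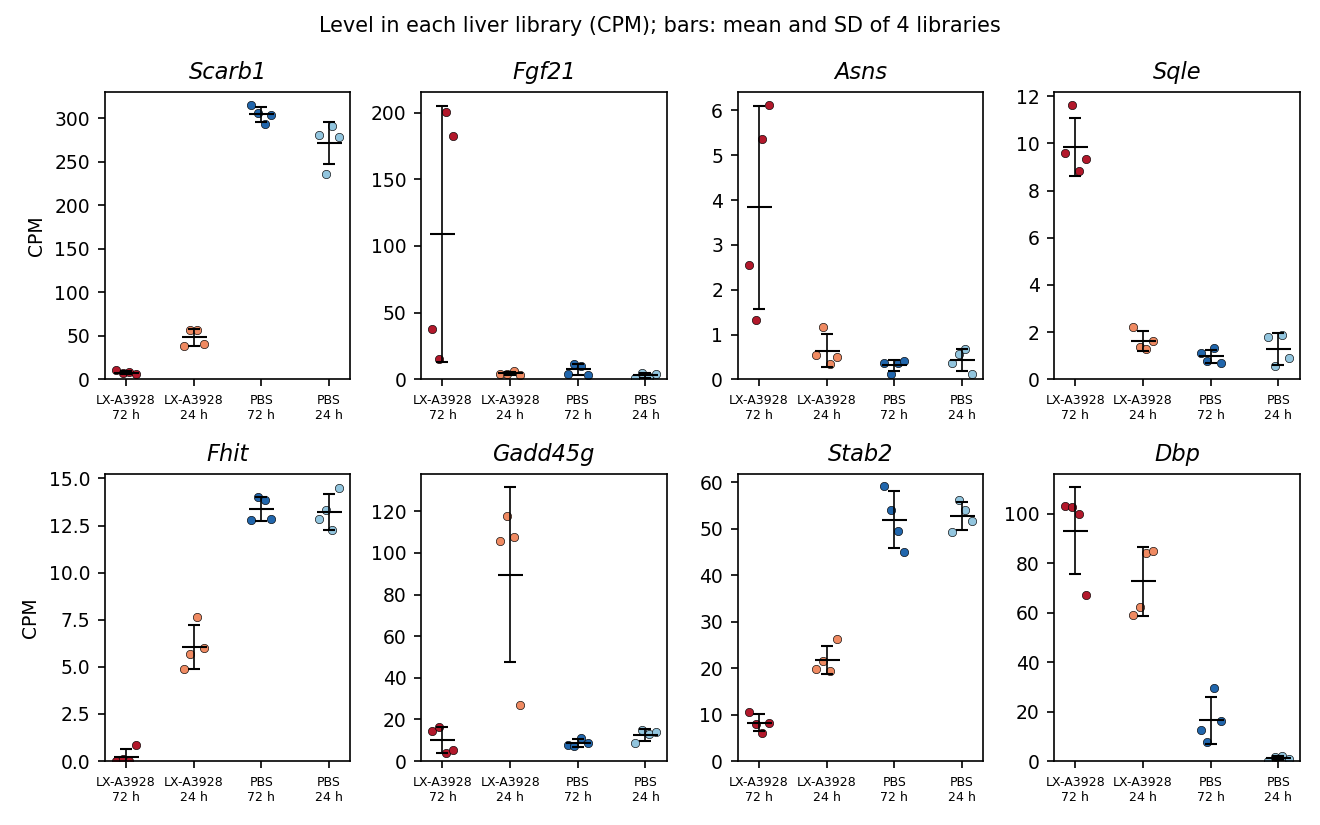
Level of 8 genes in each liver library, in CPM (linear axes), in LX-A3928 livers at 72 h and 24 h and in PBS livers at 72 h and 24 h; points are libraries, bars the mean and SD of 4. Scarb1, Fhit and Stab2 are lower in every LX-A3928 library at 72 h than at 24 h, Fgf21, Asns and Sqle are higher, Gadd45g has 1 low library (26.8 CPM) among the 24 h group, and Dbp overlaps between the 2 times with LX-A3928 while it differs between the 2 times with PBS.

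At an adjusted p under 0.05, 433 genes were called between 72 h and 24 h with LX-A3928, or 3.42% of those tested. Of these, 160 (1.26%) were higher and 273 (2.15%) were lower at 72 h, and 187 (1.48%) had a log2 change of at least 1 in size. The 2 groups of 4 libraries did not overlap in 1442 genes, or 11.4% of those tested, among them 399 of the 433 called. Without 72 h replicate 4, 284 genes were called (102 higher and 182 lower), of which 253 were among the 433. Without 24 h replicate 3, 282 were called (92 higher and 190 lower), of which 281 were among the 433. Between PBS livers at 72 h and 24 h, 10 genes (0.0789%) were called by the same fit and 680 had an unadjusted p under 0.05. Leaving out 1 PBS library gave 2 (without 24 h replicate 1) to 33 (without 72 h replicate 4). The change with LX-A3928 differed from the change with PBS in 160 genes (1.26%), 53 of them (0.418%) higher and 107 (0.844%) lower relative to PBS. Of the 160, 124 were among the 433, all in the same direction, and 36 were not. For the rest of the 433, a difference from the PBS change was not called.

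Genes of cholesterol synthesis were higher at 72 h. Of the 17 sterol synthesis genes tested, 10 rose and none fell, against the 1.26% called higher among all genes, and all 17 had a positive log2 change. Their median log2 change was 0.76, against 0.02 over all genes tested, and in PBS livers it was -0.03. With LX-A1656 and LX-A2003 the list's median was higher, 1.51 and 0.88. In 4 of the 17, Sqle, Cyp51 and Pmvk among them, the change also exceeded that in PBS livers. The count of genes that rose was 7 without 72 h replicate 4 and 6 without 24 h replicate 1.

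Sqle, which encodes squalene epoxidase, measured 9.61, 11.6, 8.83 and 9.32 CPM at 72 h, against 2.21, 1.37, 1.28 and 1.64 CPM at 24 h. Every library at 72 h was above every library at 24 h, and the 24 h libraries lay near the PBS range of 0.564 to 1.89 CPM at that time. The log2 change was 2.58 ± 0.319 (adjusted p = 2.37e-07). Cyp51, the lanosterol demethylase gene, had 31.5 to 58.6 CPM at 72 h, against 15.7 to 24.6 CPM at 24 h, again without overlap (log2 change 1.15 ± 0.20, adjusted p = 0.000138). Pmvk, for phosphomevalonate kinase, averaged 37.9 ± 6.04 CPM at 72 h and 20.0 ± 1.11 CPM at 24 h (SD, n = 4 each; log2 change 0.92 ± 0.178, adjusted p = 0.000696).

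Another 6 that rose act after squalene formation begins, from Fdft1 (squalene synthase) and Lss (lanosterol synthase) to Msmo1, Nsdhl, Hsd17b7 and Dhcr7, which modify the sterol ring. Their log2 changes ran from 0.56 for Hsd17b7 to 1.11 for Msmo1. Hmgcs1, for HMG-CoA synthase, averaged 164 CPM at 72 h and 150.4 CPM at 24 h (log2 change 0.12 ± 0.201, adjusted p = 0.877). The sterol sensor partner Insig1 averaged 336 CPM at 72 h and 200.4 CPM at 24 h (log2 change 0.75 ± 0.239, adjusted p = 0.0764).

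**Figure D2:**
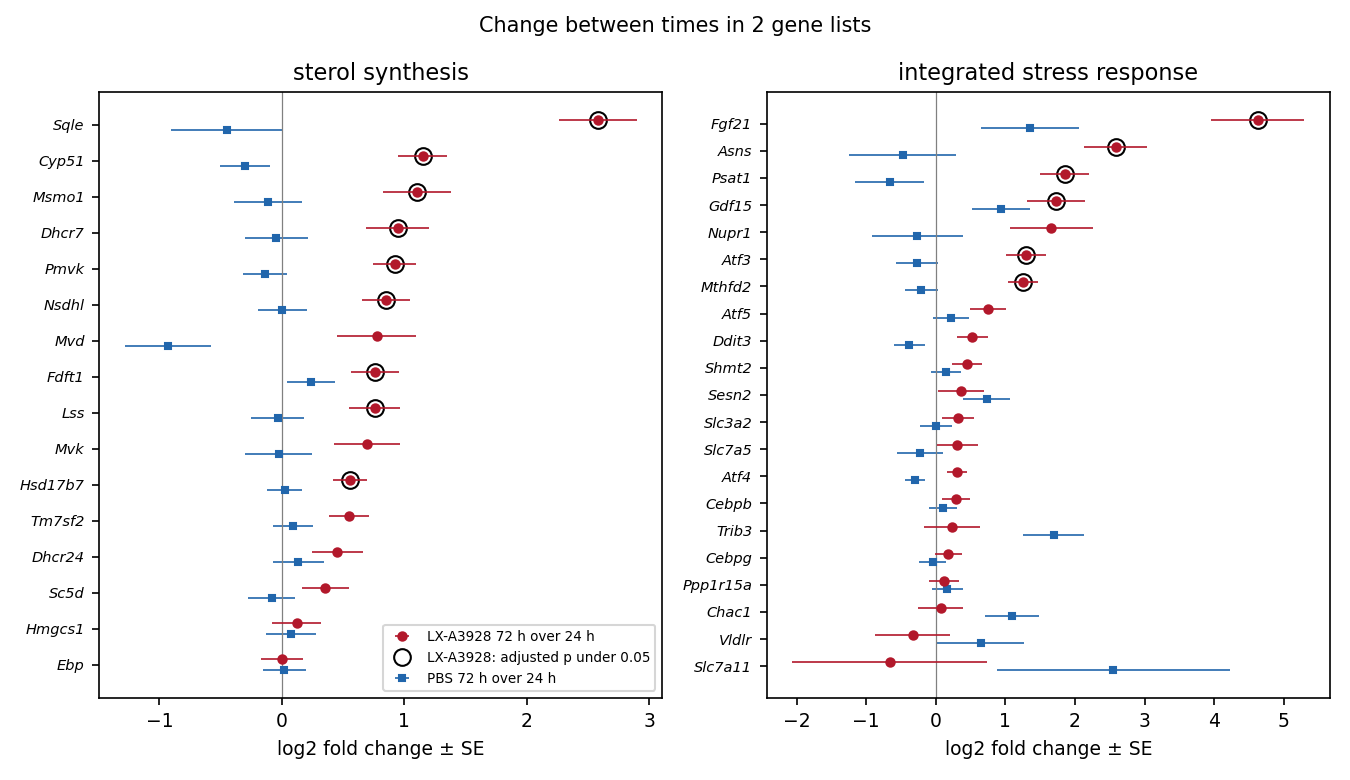
Log2 fold change of 72 h over 24 h (horizontal axis, bars ± SE) for 16 of the 17 sterol synthesis genes (left) and 21 integrated stress response genes (right), with LX-A3928 as red circles and PBS as blue squares; black rings mark genes called with LX-A3928. In sterol synthesis 9 of the genes shown are ringed and in the stress response 6, while the PBS values lie on both sides of 0 (medians of the whole lists -0.03 and 0.10).

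Of 21 integrated stress response genes tested, 6 rose at 72 h and none fell, against 1.26% called higher among all genes, and 19 had a positive log2 change. The list's median was 0.36 with LX-A3928 and 0.10 with PBS, and it was 1.59 with LX-A1656 and 0.42 with LX-A2003. In 3 of the 6 (Mthfd2, Psat1 and Atf3) the change exceeded that in PBS livers. The members that rose were the hormone genes Fgf21 and Gdf15, the asparagine synthetase gene Asns, the serine synthesis gene Psat1, the mitochondrial folate enzyme gene Mthfd2 and the transcription factor gene Atf3. Atf4 itself averaged 295 CPM at 72 h and 239 CPM at 24 h (log2 change 0.30 ± 0.139, adjusted p = 0.313). The list's median and counts describe these genes alone, since the list was chosen with earlier results of these data known.

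Fgf21, a liver hormone released on fasting and stress, had the highest log2 change among called genes that reached a mean of 10 CPM in 1 group and did not overlap, 4.63 ± 0.666 (adjusted p = 1.01e-05). It measured 37.6, 15.1, 201 and 183 CPM at 72 h, against 3.95, 3.81, 6.39 and 3.45 CPM at 24 h. The groups did not overlap, but the 72 h libraries fell into a low pair (replicates 1 and 2) and a high pair (replicates 3 and 4). In PBS livers it ranged from 3.49 to 11.6 CPM at 72 h and from 1.26 to 4.85 CPM at 24 h, and the difference from the PBS change was not called (3.27 ± 0.952, adjusted p = 0.0778). A fit of only the 8 compared libraries gave an adjusted p of 0.0623 for the change with LX-A3928.

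Asns measured 2.56, 1.33, 5.36 and 6.11 CPM at 72 h, against 0.553, 1.17, 0.341 and 0.492 CPM at 24 h. Replicate 2 of the 72 h group was its lowest library and lay just above the highest at 24 h (log2 change 2.58 ± 0.456, adjusted p = 0.000179). Psat1 had 3.93, 1.88, 6.20 and 4.87 CPM at 72 h, against 0.712, 1.37, 2.04 and 0.574 CPM at 24 h, and replicate 2 of the 72 h group lay within the 24 h range (log2 change 1.85 ± 0.355, adjusted p = 0.000658). Mthfd2 had 13.4, 7.86, 18.0 and 17.6 CPM at 72 h, against 3.95, 6.06, 8.34 and 5.50 CPM at 24 h, with the same replicate inside the 24 h range (log2 change 1.25 ± 0.215, adjusted p = 0.000121). Atf3 averaged 2.16 ± 0.748 CPM at 72 h and 0.851 ± 0.210 CPM at 24 h (log2 change 1.30 ± 0.286, adjusted p = 0.00359). Gdf15 had 9.48, 7.31, 18.3 and 36.5 CPM at 72 h, against 5.14, 5.28, 3.75 and 7.22 CPM at 24 h (log2 change 1.73 ± 0.416, adjusted p = 0.00925). Its highest library was replicate 4, without which the change was 1.12 and the adjusted p 0.177. It also lost the call without 24 h replicate 3 (adjusted p = 0.0513) and in a fit of only the 8 compared libraries (0.136).

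The upstream sequences of 3 of the 6 members that rose are shown because they hold the motif TGATGNAA, the core of the element bound by ATF4 with C/EBP partners. Each run is the 250 bases before the RefSeq transcription start (GRCm38.p6), 5′ to 3′ on the gene's strand, which is the minus strand for all 3, and capitals mark the motif, read on the other strand as TTNCATCA.
Asns, chr6:7693210-7693459: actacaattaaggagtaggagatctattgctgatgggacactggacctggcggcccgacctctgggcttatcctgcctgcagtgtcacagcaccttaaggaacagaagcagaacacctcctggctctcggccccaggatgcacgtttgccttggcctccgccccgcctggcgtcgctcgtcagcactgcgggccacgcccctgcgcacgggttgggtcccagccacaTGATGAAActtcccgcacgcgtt
Fgf21, chr7:45615491-45615740: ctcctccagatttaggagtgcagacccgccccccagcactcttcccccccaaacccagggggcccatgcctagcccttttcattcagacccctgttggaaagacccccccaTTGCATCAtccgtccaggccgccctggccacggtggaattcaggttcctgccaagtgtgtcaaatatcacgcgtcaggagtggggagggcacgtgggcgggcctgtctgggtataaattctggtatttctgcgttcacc
Atf3, chr1:191183334-191183583: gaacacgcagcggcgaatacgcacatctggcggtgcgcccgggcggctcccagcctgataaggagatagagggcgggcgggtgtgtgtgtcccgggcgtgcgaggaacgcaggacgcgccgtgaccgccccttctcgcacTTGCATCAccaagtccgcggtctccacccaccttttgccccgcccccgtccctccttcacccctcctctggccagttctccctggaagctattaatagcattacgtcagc

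The motif was found on either strand in such a window in 7 of the 20 list members with a promoter in the RefSeq table (Atf3, Chac1, Asns, Fgf21, Slc7a11, Vldlr and Nupr1) and in 253 of 9629 tested genes with one (2.63%). Of these 7, the 3 printed rose at 72 h. Psat1, Mthfd2 and Gdf15 held no match in their windows. For sterol synthesis, the motif TCACNCCAC (reverse GTGGNGTGA) was found in 1 of 13 members, Hmgcs1, in none of the 7 members that rose and have a promoter in the table, and in 131 of 9629 tested genes (1.36%). A match describes letters in a window and not a bound site.

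Outside those lists, the genes with the highest log2 changes by that same rule included the non-coding 1110028F11Rik, the axonemal dynein gene Dnaic1 and the monocarboxylate transporter gene Slc16a5. 1110028F11Rik measured 54.5, 60.3, 96.8 and 62.2 CPM at 72 h, against 10.5, 12.3, 10.9 and 10.0 CPM at 24 h. The groups lay far apart (log2 change 2.65 ± 0.168, adjusted p = 7.63e-16), and the difference from the PBS change was 2.90 ± 0.244 (adjusted p = 2.25e-11). GENCODE M21 annotates it as a sense intronic transcript, so reads of the gene it lies in cannot be told apart from its own here. Dnaic1 had 20.7, 29.7, 28.5 and 52.9 CPM at 72 h, against 7.91, 6.16, 6.39 and 3.45 CPM at 24 h, without overlap (log2 change 2.46 ± 0.263, adjusted p = 6.15e-09). Slc16a5 averaged 23.1 ± 4.44 CPM at 72 h and 6.40 ± 1.15 CPM at 24 h (log2 change 1.85 ± 0.268, adjusted p = 7.57e-06), and the brain-type aldolase gene Aldoc averaged 46.0 ± 8.23 and 14.4 ± 1.52 CPM (log2 change 1.68 ± 0.226, adjusted p = 1.51e-06).

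Fam198a averaged 14.8 ± 5.22 CPM at 72 h and 4.61 ± 0.374 CPM at 24 h (log2 change 1.67 ± 0.287, adjusted p = 0.000121). Like 1110028F11Rik, Dnaic1 and G6pc, it was among the 5 genes with the highest differences from the PBS change (2.15 ± 0.426, adjusted p = 0.00284). That ranking took only called genes averaging 10 CPM or more in any 1 group compared. Cntnap1, for a contactin partner of nerve fibres, had 16.8, 10.6, 42.4 and 15.7 CPM at 72 h, against 3.77 to 5.11 CPM at 24 h (log2 change 2.19 ± 0.288, adjusted p = 1.03e-06). 8430408G22Rik had 268, 157, 470.2 and 515 CPM at 72 h, against 57.3, 52.2, 60.4 and 142 CPM at 24 h. Its PBS libraries ranged from 166 to 421 CPM at 72 h and from 133 to 186 CPM at 24 h, so at 24 h 3 of the 4 LX-A3928 libraries lay below the PBS range. The log2 change was 2.18 ± 0.387 (adjusted p = 0.000264), or an adjusted p of 0.0719 in a fit of only the 8 compared libraries. Serpina7, for thyroxine-binding globulin, averaged 54.7 ± 18.8 CPM at 72 h and 16.4 ± 8.17 CPM at 24 h (log2 change 1.74 ± 0.448, adjusted p = 0.0179). Its call was lost on leaving out 72 h replicate 4 (adjusted p = 0.0923) or 24 h replicates 1 (0.0908), 2 (0.0527) or 3 (0.0710). The processed transcript 4833411C07Rik averaged 143 ± 43.0 CPM at 72 h and 52.6 ± 12.9 CPM at 24 h (log2 change 1.44 ± 0.341, adjusted p = 0.00812).

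Genes that span a long stretch of the genome were lower at 72 h. A span of 300 kb or more was found for 279 of the 12400 tested genes with a span in GENCODE M21 (GRCm38), whose median span was 24.3 kb. Of these 279, 79 (28.3%) fell and none rose, against 2.15% called lower among all genes, and 89.2% had a negative log2 change. Their median log2 change was -0.62 with LX-A3928 and 0.03 with PBS, and the median difference from PBS was -0.70. With LX-A1656 and LX-A2003 the median of these genes was -1.07 and -0.66. In the 4 LX-A3928 libraries at 72 h, set against the 24 h group, the median was -0.41, -0.49, -0.54 and -0.79, with replicate 4 the lowest. The change was below 0 in each of the 4. Relative to PBS, the long genes had a median of -0.87 at 72 h and of -0.19 at 24 h.

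The median fell with span. It was 0.10 for 2963 genes under 10 kb, 0.07 for 4149 genes of 10 to 30 kb, 0.00 for 3677 genes of 30 to 100 kb and -0.20 for 1332 genes of 100 to 300 kb. In that last bin 96 genes fell and 2 rose, and in the shortest bin 14 fell and 64 rose. The genes that fell had a median span of 156 kb and those that rose 13.9 kb. Across the genes with a span, Spearman's rho between span and log2 change was -0.27 with LX-A3928 and 0.05 with PBS, where the genes share libraries and are not independent. With 5 bins of equal gene number the longest bin began at 69.4 kb and its median was -0.17. The longest genes also had low levels, with a median of 6.97 CPM at 24 h, against 10.6 CPM for genes under 10 kb.

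**Figure D3:**
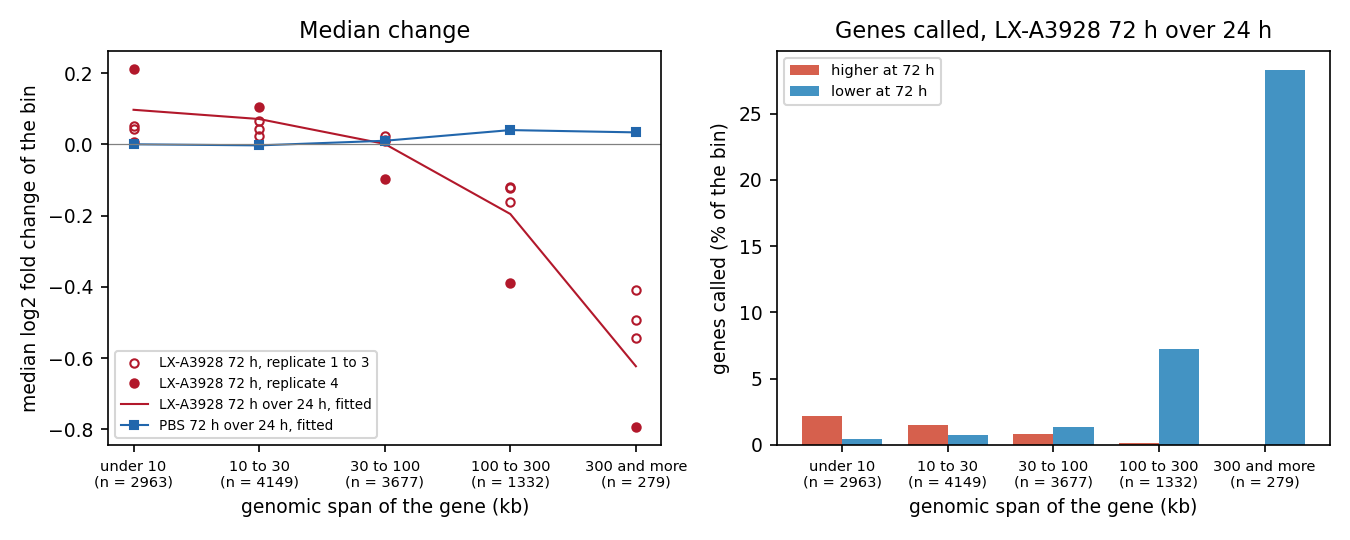
Left, median log2 fold change of 72 h over 24 h (vertical axis) in 5 bins of genomic span, as the fitted value with LX-A3928 (red line) and PBS (blue squares) and for each LX-A3928 library at 72 h (circles, replicate 4 filled); right, the percentage of each bin called higher or lower with LX-A3928. The LX-A3928 line falls to -0.62 in the longest bin, where all 4 libraries lie below 0, the PBS line stays near 0, and 28.3% of the longest genes are called lower.

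Fhit, which lies at a common fragile site and spans 1612 kb, was near 0 at 72 h. It measured 0, 0.111, 0 and 0.83 CPM at 72 h, against 4.90, 5.67, 7.66 and 5.99 CPM at 24 h, and PBS libraries ranged from 12.3 to 14.5 CPM over both times. The LX-A3928 groups lay far apart from each other, and both lay below every PBS library (log2 change -4.78 ± 0.502, adjusted p = 3.74e-09). Immp2l, for a subunit of a mitochondrial inner membrane peptidase (931.5 kb), had 0.125, 0.332, 0 and 1.14 CPM at 72 h, against 5.45, 5.97, 6.22 and 6.89 CPM at 24 h and 16.3 to 20.8 CPM in PBS livers (log2 change -4.01 ± 0.396, adjusted p = 8.98e-10). Naaladl2 (1346 kb) had 0.562, 0.221, 0.105 and 0.622 CPM at 72 h, against 4.27, 6.65, 6.13 and 3.77 CPM at 24 h and 12.8 to 17.8 CPM in PBS livers (log2 change -3.66 ± 0.431, adjusted p = 7.05e-08). Among called genes averaging 10 CPM or more in any 1 group, these 3 had the lowest differences from the PBS change, at -4.80, -4.14 and -3.56. For all 3 the highest of the 72 h libraries was replicate 4, the library that stood apart.

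Of the 12 genes with the lowest log2 changes among those that reached a mean of 10 CPM in 1 group and did not overlap, 4 span 300 kb or more. Sox5, for a transcription factor (953.6 kb), had 5.05, 4.21, 3.58 and 3.21 CPM at 72 h, against 17.4, 23.7, 26.5 and 24.4 CPM at 24 h. At 24 h its libraries lay within or near the PBS range of 18.0 to 29.2 CPM at that time (log2 change over time -2.50 ± 0.289, adjusted p = 4.67e-08). Ptprg, for a receptor tyrosine phosphatase (688.5 kb), had 6.55, 2.32, 4.63 and 3.31 CPM at 72 h, against 16.1, 22.0, 21.5 and 15.3 CPM at 24 h (log2 change -2.12 ± 0.223, adjusted p = 3.74e-09). Lpp, for a LIM domain protein of cell adhesions (599.1 kb), averaged 10.8 ± 0.537 CPM at 72 h and 32.5 ± 3.88 CPM at 24 h (log2 change -1.59 ± 0.199, adjusted p = 3.06e-07). Fbxl17, for an F-box protein (442.6 kb), averaged 10.5 ± 1.93 CPM at 72 h and 28.9 ± 3.76 CPM at 24 h (log2 change -1.46 ± 0.208, adjusted p = 5.23e-06). For these 4 genes the PBS change over time ran from 0.07 to 0.19.

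Shorter genes were among the 12 as well. Sdc2, for the heparan sulfate proteoglycan syndecan-2 (114.2 kb), had 43.1, 35.6, 29.2 and 41.2 CPM at 72 h, against 137, 168, 139 and 134 CPM at 24 h and 220.1 to 256 CPM in PBS livers at 24 h. The 3 sets of libraries did not overlap (log2 change over time -1.95 ± 0.165, adjusted p = 1.29e-11). Mug2, a murinoglobulin gene of the protease inhibitor family, averaged 21.2 ± 6.85 CPM at 72 h and 77.6 ± 18.4 CPM at 24 h (log2 change -1.87 ± 0.299, adjusted p = 4.60e-05). Adam11 had 15.6, 14.2, 16.0 and 9.32 CPM at 72 h, against 59.0, 48.3, 30.1 and 59.7 CPM at 24 h (log2 change -1.84 ± 0.236, adjusted p = 5.32e-07). Of the 24 h libraries, 2 of 4 for Mug2 and 3 of 4 for Adam11 lay within the PBS ranges at that time, 61.5 to 97.4 CPM and 43.9 to 68.9 CPM. The coagulation factor VIII gene F8 averaged 3.58 ± 1.09 CPM at 72 h and 10.7 ± 1.80 CPM at 24 h (log2 change -1.57 ± 0.365, adjusted p = 0.00642), and the parathyroid hormone receptor gene Pth1r averaged 4.09 ± 1.44 and 11.4 ± 1.51 CPM (log2 change -1.48 ± 0.261, adjusted p = 0.000165). Reads of near-identical family members, such as murinoglobulins and Cyp2 genes, could not be checked for assignment.

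Gadd45g, a growth arrest and stress gene, had the lowest log2 change by the same rule and stood above PBS at 24 h. It measured 14.5, 16.3, 4.00 and 5.28 CPM at 72 h, against 106, 118, 108 and 26.8 CPM at 24 h. The PBS libraries had 7.18 to 11.2 CPM at 72 h and 8.53 to 15.0 CPM at 24 h. All 4 LX-A3928 libraries at 24 h lay above the PBS range at that time, replicate 4 by less than the others. At 72 h, LX-A3928 replicates 1 and 2 lay above the PBS range and replicates 3 and 4 below it. The log2 change was -3.15 ± 0.550 (adjusted p = 0.000200), or an adjusted p of 0.0534 in a fit of only the 8 compared libraries. The log2 difference from PBS was 0.21 at 72 h (adjusted p = 0.879) and 2.82 at 24 h (adjusted p = 0.000991). In the list of 31 immediate early and injury genes it was the 1 gene that fell, while Atf3, Btg2 and Krt18 rose, and the median was 0.19. Among all genes 2.15% were called lower and 1.26% higher. Without 72 h replicate 4, 1 of the 31 rose.

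Markers of liver sinusoidal endothelium, the fenestrated lining that clears macromolecules from blood, were lower at 72 h. Of 12 tested, 5 fell (Stab2, Kdr, Stab1, Flt4 and Gpr182) and none rose, against 2.15% called lower among all genes. The median log2 change was -0.65, 11 of 12 were negative, and in PBS livers the median was 0.02. With LX-A1656 and LX-A2003 the list's median was -0.88 and -0.51. Their summed level was 272 to 307 CPM in the 4 libraries at 72 h, against 419 to 460.4 CPM at 24 h, without overlap. Without 72 h replicate 4, 3 of the 12 fell. In 2 (Stab2 and Kdr) the change differed from that with PBS.

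Stab2, for the scavenger receptor stabilin-2, measured 10.6, 7.97, 6.10 and 8.29 CPM at 72 h, against 19.9, 21.5, 19.3 and 26.2 CPM at 24 h and 45.1 to 59.2 CPM in PBS livers over both times. The 3 levels did not overlap, and the log2 change over time was -1.39 ± 0.202 (adjusted p = 7.79e-06; difference from PBS -1.37 ± 0.275, adjusted p = 0.00349). Kdr, for VEGF receptor 2, had 9.17, 10.1, 8.31 and 8.18 CPM at 72 h, against 17.2, 22.6, 22.0 and 22.6 CPM at 24 h and 35.8 to 46.6 CPM with PBS. Its 3 levels did not overlap either (log2 change over time -1.24 ± 0.191, adjusted p = 2.20e-05; difference from PBS -1.29 ± 0.263, adjusted p = 0.00377). Stab1 (stabilin-1) averaged 36.0 ± 6.98 CPM at 72 h and 59.2 ± 4.12 CPM at 24 h (log2 change -0.72 ± 0.171, adjusted p = 0.00787), but without 72 h replicate 4 the change was -0.62 and the adjusted p 0.0628. Flt4, for VEGF receptor 3, had 17.6 to 20.5 CPM at 72 h and 29.4 to 33.3 CPM at 24 h (log2 change -0.74 ± 0.185, adjusted p = 0.0131). Gpr182 had 9.25 to 11.0 CPM at 72 h and 15.4 to 19.5 CPM at 24 h (log2 change -0.73 ± 0.204, adjusted p = 0.0294), but it was not called without 72 h replicate 4.

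Unlike Stab2 and Kdr, Stab1 and Flt4 at 24 h had levels of 54.4 to 62.7 and 29.4 to 33.3 CPM with LX-A3928, beside 54.4 to 71.3 and 29.6 to 36.5 CPM with PBS. Lyve1 averaged 7.67 ± 1.11 CPM at 72 h and 8.88 ± 2.67 CPM at 24 h (log2 change -0.21 ± 0.233, adjusted p = 0.786), and Clec4g 64.7 ± 10.1 and 99.2 ± 7.12 CPM (-0.62 ± 0.214, adjusted p = 0.111). The endothelial genes that fell span from 29.6 kb (Stab1) to 166.8 kb (Stab2) among those with a span printed here, and Kdr and Flt4 span 45.6 and 43.5 kb. In bulk liver, fewer endothelial cells and less of these RNAs per cell cannot be told apart. Among 8 stellate cell markers, Pdgfrb alone fell, against 2.15% called lower among all genes, and the list's median was 0.07. Pdgfrb had 6.31 to 7.98 CPM at 72 h and 12.9 to 17.9 CPM at 24 h (log2 change -1.09 ± 0.255, adjusted p = 0.00711). None of the 9 Kupffer cell markers was called, with a median of -0.08.

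**Figure D4:**
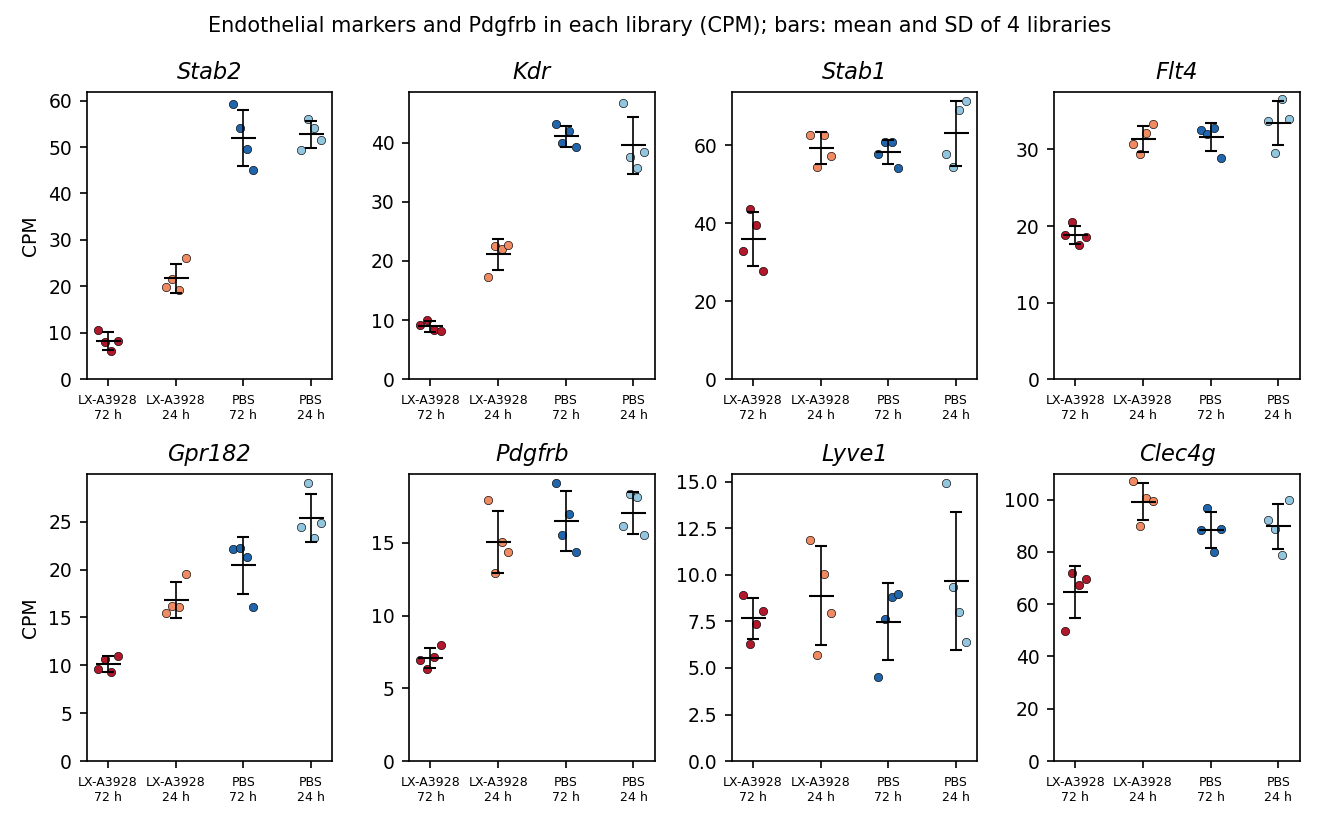
Level of 7 sinusoidal endothelial markers and of the stellate marker Pdgfrb in each library (CPM, linear axes), in LX-A3928 livers at 72 h and 24 h and in PBS livers at 72 h and 24 h; bars give the mean and SD of 4. Stab2 and Kdr are lowest with LX-A3928 at 72 h, next lowest with LX-A3928 at 24 h and highest with PBS. With LX-A3928, Stab1, Flt4 and Pdgfrb are lower at 72 h than at 24 h, and Lyve1 overlaps between the groups.

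Of 16 core circadian clock genes 2 fell, Arntl and Npas2, which encode partners in the activating arm of the clock, and none rose (median -0.01), while 2.15% of all genes were called lower. Npas2 (169.5 kb) had 0.374, 0.443, 0.736 and 1.35 CPM at 72 h, against 4.35, 3.42, 2.04 and 1.40 CPM at 24 h and 7.98 to 36.9 CPM in PBS livers. The 72 h libraries were the lowest, with replicate 4 close to the lowest at 24 h (log2 change -1.99 ± 0.445, adjusted p = 0.00418). Arntl (106.7 kb) had 2.68, 2.55, 3.05 and 6.63 CPM at 72 h, against 10.0, 10.6, 6.47 and 6.32 CPM at 24 h and 18.8 to 38.3 CPM with PBS, and replicate 4 of the 72 h group lay within the 24 h range (log2 change -1.17 ± 0.232, adjusted p = 0.000936). Neither change differed from that with PBS at an adjusted p under 0.05.

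Dbp, a transcription factor gene driven by the clock, differed from PBS in its course over time. It had 103, 103, 99.9 and 67.1 CPM at 72 h and 58.9, 62.3, 84.2 and 85.1 CPM at 24 h with LX-A3928 (log2 change 0.36 ± 0.428, adjusted p = 0.805). In PBS livers it ranged from 7.62 to 29.7 CPM at 72 h and from 0.180 to 2.23 CPM at 24 h, a log2 change of 3.85, and it was 1 of the 10 genes called there. The difference between the changes was -3.49 ± 0.740 (adjusted p = 0.00632), and it came with a PBS change and no called change with LX-A3928. The hour of collection is not given, and its part in these values was not tested. Of 12 clock output genes 2 rose with LX-A3928 (1.26% of all genes did): Wee1, for a mitotic kinase, averaged 17.9 ± 7.60 CPM at 72 h and 6.80 ± 2.30 CPM at 24 h (log2 change 1.39 ± 0.270, adjusted p = 0.000797), and Usp2, for a deubiquitinase, averaged 22.4 ± 11.8 and 11.4 ± 3.49 CPM (0.97 ± 0.276, adjusted p = 0.0355). In both, 72 h replicate 4 was lowest of its group and lay within the 24 h range. The Usp2 call was lost in 5 of the 8 fits that left out 1 library (adjusted p up to 0.228).

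Igfbp1, for a fasting-induced binding protein of insulin-like growth factors, measured 43.1, 8.74, 53.5 and 62.5 CPM at 72 h, against 11.1, 8.31, 6.04 and 9.03 CPM at 24 h. At 72 h replicate 2 alone lay below the PBS range of 24.2 to 40.2 CPM, and at 24 h all 4 LX-A3928 libraries lay below the PBS range of 14.6 to 40.3 CPM. The log2 change was 2.28 ± 0.365 (adjusted p = 5.09e-05), with an adjusted p of 0.0840 in a fit of only the 8 compared libraries. Socs2, an inhibitor of growth hormone signalling, had 1.44, 5.42, 0.315 and 0 CPM at 72 h, against 12.4, 8.80, 7.58 and 5.42 CPM at 24 h, where the groups met at 5.42 CPM (log2 change -2.28 ± 0.677, adjusted p = 0.0490). That call held in 1 of the 8 fits that left out 1 library, and the adjusted p was highest, 0.178, without 72 h replicate 4. These were the 2 genes called among 13 of the growth hormone axis, against 3.42% called among all genes, and the list's median was -0.35.

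The glucose-6-phosphatase gene G6pc, which serves glucose release, had 777, 157, 931 and 1179.5 CPM at 72 h, against 254, 340.5, 356 and 307 CPM at 24 h. Replicate 2 at 72 h lay below all 4 libraries at 24 h, and the other 3 lay above them. The log2 change was 1.28 ± 0.337 (adjusted p = 0.0207), and the call was lost in 4 of the 8 fits that left out 1 library, among them that without 72 h replicate 4 (adjusted p = 0.160), and in a fit of only the 8 compared libraries (0.315). PBS livers had 451 to 698 CPM at 72 h and 773 to 1587 CPM at 24 h, and the difference from the PBS change was 2.11 ± 0.474 (adjusted p = 0.0101), or an adjusted p of 0.106 in a fit of only the 16 compared libraries. The tyrosine aminotransferase gene Tat averaged 2653 ± 711 CPM at 72 h and 1395 ± 285 CPM at 24 h, while PBS livers averaged 1776 and 2611 CPM at those times (log2 change with LX-A3928 0.93 ± 0.235, adjusted p = 0.0137; without 72 h replicate 4, 0.75 and 0.110). These were the 2 genes that rose among 21 genes of glucose and glycogen metabolism, against 1.26% called higher among all genes. Without 72 h replicate 4 none of the 21 was called. Replicate 2 of the 72 h group was also the lowest of its group for Fgf21, Igfbp1, Asns, Psat1 and Mthfd2.

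In fatty acid synthesis 3 of 22 genes rose, all 3 of the long-chain polyunsaturated branch, against 1.26% called higher among all genes. Without 72 h replicate 4, 1 of the 22 also fell. Fads2, a desaturase gene, had 1125, 1292, 1449 and 1291 CPM at 72 h, against 596, 646, 704 and 596 CPM at 24 h. The groups lay well apart (log2 change 1.02 ± 0.187, adjusted p = 0.000330; difference from PBS 1.00, adjusted p = 0.0352). Fads1, the other desaturase gene, averaged 1023 ± 94.9 CPM at 72 h and 549 ± 55.4 CPM at 24 h (0.90 ± 0.159, adjusted p = 0.000200), and the elongase gene Elovl2 averaged 1476 ± 296 and 856 ± 81.5 CPM (0.79 ± 0.163, adjusted p = 0.00179). The median of the 22 was 0.26. Cpt1a, which admits fatty acids to mitochondria, was the 1 gene called among 24 of fatty acid oxidation, against 3.42% called among all genes. It averaged 721 ± 75.2 CPM at 72 h and 477 ± 61.6 CPM at 24 h (0.60 ± 0.139, adjusted p = 0.00676), and its change in PBS livers was 0.50. Abcb11, the bile salt export pump gene, was the 1 gene called among 19 of bile acid synthesis and transport, beside the same 3.42%. It had 285 to 329 CPM at 72 h and 573 to 613 CPM at 24 h (-0.94 ± 0.211, adjusted p = 0.00473).

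Among 25 xenobiotic receptor and P450 genes 3 fell and none rose, against 2.15% called lower among all genes, and the median was -0.34. Cyp2b10, a target of the receptor CAR, had 3.56, 5.31, 2.10 and 4.04 CPM at 72 h, against 12.6, 8.02, 5.45 and 20.0 CPM at 24 h. The groups did not overlap, by a narrow gap (log2 change -1.63 ± 0.375, adjusted p = 0.00634), and the call was lost without 24 h replicate 4 (adjusted p = 0.0757). Nr1i3, the gene for CAR, had 86.4 to 131 CPM at 72 h and 144 to 194 CPM at 24 h (-0.71 ± 0.185, adjusted p = 0.0190; without 72 h replicate 4, 0.104). Cyp2c55 averaged 3.73 ± 1.04 CPM at 72 h and 7.21 ± 2.24 CPM at 24 h (-0.95 ± 0.265, adjusted p = 0.0294), and that call was lost in 5 of the 8 fits that left out 1 library.

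Of 27 interferon response genes 2 rose, against 1.26% called higher among all genes. Usp18, for a protease that removes ISG15, had 20.8, 17.6, 14.3 and 16.4 CPM at 72 h, against 5.14, 7.73, 6.64 and 6.98 CPM at 24 h. The 24 h libraries lay near the PBS range at that time, 4.18 to 7.13 CPM, and every 72 h library lay above that range (log2 change over time 1.39 ± 0.206, adjusted p = 1.11e-05; difference from PBS 1.42, adjusted p = 0.00590). Cxcl10, a chemokine gene, had 11.2, 14.4, 15.6 and 13.5 CPM at 72 h, against 5.45, 5.77, 4.85 and 7.80 CPM at 24 h (1.19 ± 0.264, adjusted p = 0.00396; difference from PBS 1.61, adjusted p = 0.0179). The other 25 were not called, and the list's median was 0.27. None of the 6 neutrophil markers tested (summed level 6.64 to 14.9 CPM at 72 h and 4.43 to 7.14 CPM at 24 h, highest in 72 h replicate 4) and none of the 7 monocyte and recruited macrophage markers was called.

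In metal handling, the iron exporter gene Slc40a1 fell, with 76.5 to 93.6 CPM at 72 h and 145 to 164 CPM at 24 h (log2 change -0.85 ± 0.160, adjusted p = 0.000493). Several lists had 1 or 2 called members near the threshold, beside 3.42% called among all genes. Ugdh among NRF2 targets, Ccna2 of DNA replication and mitosis, Btg2 among p53 targets, Krt18, Id1 and Mup20 rose, with log2 changes from 0.54 to 1.14, and the histidine breakdown gene Hal fell (-0.66 ± 0.191, adjusted p = 0.0400). Each of these 7 lost its call without 72 h replicate 4, with adjusted p-values from 0.0732 to 0.300, and Hal lost it on leaving out any 1 of the 8 libraries. No member was called in the lists of hepatocyte secreted proteins, HDL and cholesterol efflux, acute phase proteins, ER chaperones, heat shock, proteasome, ribosome biogenesis, matrix, or pericentral genes, nor among markers of T cells, NK cells, B and plasma cells, cholangiocytes, mast cells or erythroid cells. Without 72 h replicate 4, 1 of the 10 heat shock genes was called, as higher. Among 22 genes of oligonucleotide uptake and RNase H, Scarb1, Stab2 and Stab1 fell and none rose, against 2.15% called lower among all genes. The list's median was 0.06, and 14 of the 22 had a positive log2 change. Without 72 h replicate 4, 2 of the 22 fell.

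The change between the times was also set against that with the other 2 gapmers, which share no library with it. Replicate 1 of LX-A1656 at 72 h stood apart from its group, with a chi-square per degree of freedom of 51.87 to 72.57. The other pairs of that group had 12.26 to 21.97. For replicate 1 of LX-A2003 at 72 h the values were 20.99 to 25.47, against 6.736 to 9.127 in the other pairs. Of the 433 genes called with LX-A3928, 293 (67.7%) were also called with LX-A2003, all 293 in the same direction, and they made up 40.4% of the 726 called there (5.73% of those tested). With LX-A1656, 376 (86.8%) were called, 360 of them in the same direction, and the 376 made up 6.86% of the 5478 called there (43.2% of those tested). The median size of the log2 change over the 433 genes was 0.94 with LX-A3928, 0.84 with LX-A2003 and 1.38 with LX-A1656. The 433 were chosen by their call with LX-A3928, which favours large changes there, so these sizes do not rank the oligonucleotides. The test of the difference itself called 2 of the 12672 genes (0.0158%) against LX-A2003, with 440 at an unadjusted p under 0.05 and 10 called by DESeq2, and 2634 (20.8%) against LX-A1656. Of these 2634, 1426 were higher and 1208 lower, but 746 and 2206 with library totals alone, where the median difference of all genes was -0.28. Few calls against LX-A2003 do not show that the 2 oligonucleotides act alike.

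**Figure D5:**
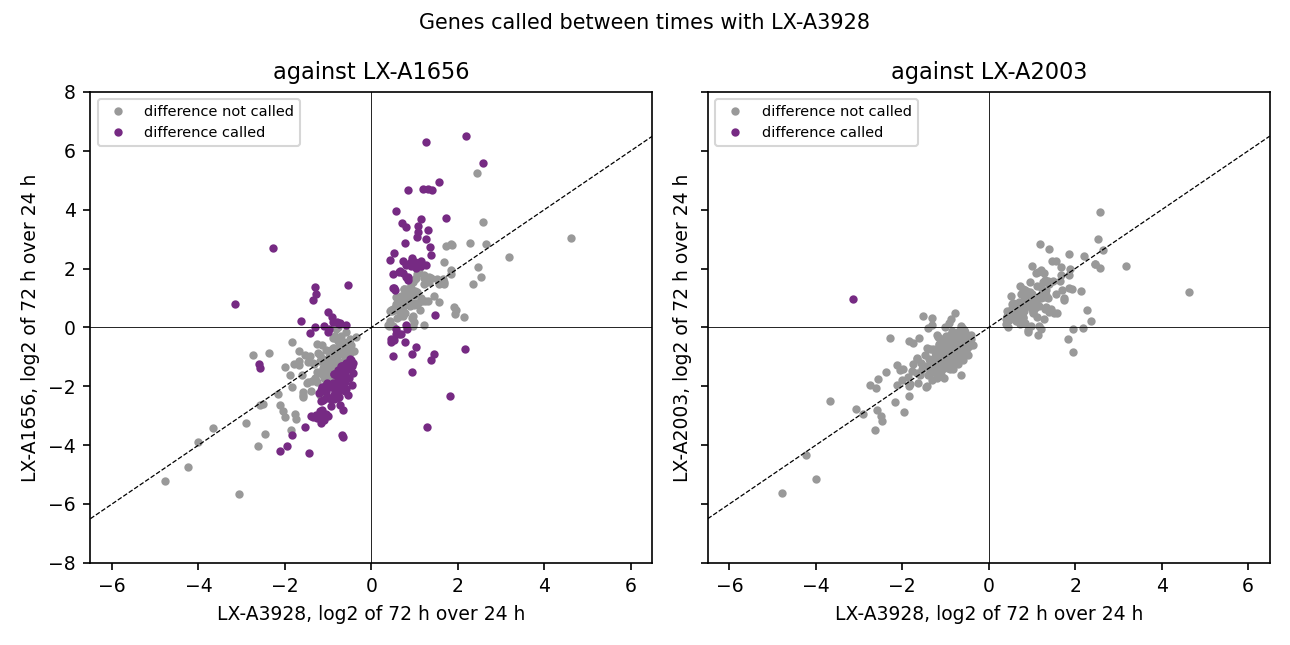
Log2 fold change of 72 h over 24 h with LX-A1656 (left) and LX-A2003 (right) against that with LX-A3928 (horizontal axis) for the 433 genes called with LX-A3928; purple marks genes whose difference between the 2 oligonucleotides was called and the dashed line marks equal change. With LX-A1656, 181 of the 433 are purple and many lie beyond the line, while with LX-A2003 1 is (Gadd45g), and the points lie along the line.

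Gadd45g and Nr0b2 were the 2 genes that differed from LX-A2003. Gadd45g averaged 45.9 ± 18.7 CPM at 72 h and 23.6 ± 12.8 CPM at 24 h with LX-A2003, and the difference between the changes was -4.11 ± 0.745 (adjusted p = 0.0287). Nr0b2, for the nuclear repressor SHP, averaged 28.3 ± 14.6 CPM at 72 h and 15.8 ± 3.27 CPM at 24 h with LX-A3928, against 21.7 ± 9.28 and 75.8 ± 19.5 CPM with LX-A2003 and 115 ± 18.9 and 140.5 ± 6.67 CPM with PBS. Its change was 0.85 with LX-A3928 and -1.80 with LX-A2003 (difference 2.66 ± 0.512, adjusted p = 0.0377). Both calls rest on few libraries: leaving out 1 of the 16 libraries gave between 0 and 16 genes called in all, with 0 in 7 of the 16 fits, among them that without 72 h replicate 4 of LX-A3928, and 16 without its 72 h replicate 2.

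Among called genes averaging 10 CPM or more in any 1 group compared, those with the highest differences from LX-A1656 fell there. G6pc averaged 73.6 ± 30.8 CPM at 72 h and 760.0 ± 188 CPM at 24 h with LX-A1656, and the difference was 4.64 ± 0.493 (adjusted p = 1.76e-09). The lipase inhibitor gene G0s2 averaged 208 ± 138 CPM at 72 h and 58.7 ± 19.3 CPM at 24 h with LX-A3928, against 46.9 ± 13.9 and 234.5 ± 64.5 CPM with LX-A1656 (difference 4.14 ± 0.607, adjusted p = 1.68e-06). Cyp7a1, for the rate-limiting enzyme of bile acid synthesis, had 124, 108, 120.1 and 66.2 CPM at 72 h, against 26.6, 26.6, 23.0 and 55.9 CPM at 24 h with LX-A3928. The groups did not overlap, but the change of 1.66 ± 0.552 was not called (adjusted p = 0.0954), while the difference from LX-A1656 was (3.83 ± 0.788, adjusted p = 0.000336). Nnmt and LOC108167326 differed by 3.52 and 3.81 (adjusted p = 0.000570 and 0.000223).

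Cldn4, Slpi and Elovl7, for a claudin, a secreted protease inhibitor and a fatty acid elongase, rose with LX-A1656 and were near 0 with LX-A3928. Cldn4 averaged 0.161 ± 0.132 CPM at 72 h and 0.210 ± 0.132 CPM at 24 h with LX-A3928, against 149 ± 90.7 and 0.424 ± 0.0642 CPM with LX-A1656 (difference -8.83 ± 1.41, adjusted p = 6.12e-06). Slpi averaged 0.473 ± 0.242 CPM at 72 h and 0.793 ± 0.357 CPM at 24 h with LX-A3928, against 91.9 ± 49.4 and 0.704 ± 0.540 CPM with LX-A1656. R3hdml had 0 counts over the 4 libraries at 72 h and 1 at 24 h with LX-A3928, against 665 and 1 counts with LX-A1656. Krt18, a keratin gene of the injury list, averaged 375 ± 85.8 CPM at 72 h and 229.8 ± 15.1 CPM at 24 h with LX-A3928, against 4092 CPM and 353 CPM with LX-A1656. Sqle averaged 9.85 ± 1.23 and 1.63 ± 0.421 CPM at 72 h and 24 h with LX-A3928, against 145.9 ± 23.2 and 3.04 ± 1.32 CPM with LX-A1656, a difference in log2 change of -3.00 ± 0.449 (adjusted p = 1.67e-06).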

How the data were processed

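Total RNA from liver was profiled with an AmpliSeq amplicon kit. Per the labels and the file, the authors deposited 1 table of raw read counts per gene target (whole numbers, 23930 genes). Its aligner, counting tool and build were not stated there.

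The table was used as deposited. Genes were kept by filterByExpr, and 1 mean for each of 12 groups was estimated over the 48 libraries (8140065 to 17191129 counts each), with TMM factors and the robust quasi-likelihood F test of edgeR 4.0.16 (R 4.3.3), with adjustment over all genes tested. Differences between 2 time changes are contrasts of that fit. A call is an adjusted p under 0.05. Alternatives included DESeq2 1.42.0. Checks on simulated counts preceded the fit.

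The members and lists were chosen with earlier results of these data known. The naming rule took Scarb1, the 12 highest and 12 lowest called changes where either group averaged 10 CPM or more and the groups did not overlap, up to 4 members with the smallest p in each list with a call, and the 5 highest and 5 lowest called differences from each other treatment. Further list members are named to account for their list, and were chosen after their values were seen. Spans came from GENCODE M21 in place of the RefSeq table that had been planned, and promoters from RefSeq. Results of a few list members are not reported here; they remain in the counts.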

Additional observations from a re-analysis of the deposited data

Results flagged for a closer look

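In 150 groups of 4 libraries examined over the named genes, 13 held a library whose gap to the nearest other exceeded Dixon's 95% critical value, and chance alone gives about 1 in 20. Of the 13, 5 were replicate 4 of the LX-A3928 72 h group, the library that stood apart. It was the highest of its group for Arntl (6.63 CPM, against 2.55 to 3.05 CPM in the others), Krt18 (501.6 CPM, against 312 to 344 CPM) and Fhit (0.8287 CPM, against 0 to 0.111 CPM). It was the lowest for Dbp (67.13 CPM, against 99.9 to 103 CPM) and Elovl7 (0 CPM, against 0.526 to 0.562 CPM). In the LX-A3928 24 h group, replicate 4 was the lowest for Gadd45g (26.83 CPM, against 106 to 118 CPM) and the highest for Pth1r (13.62 CPM, against 10.5 to 10.7 CPM), 8430408G22Rik (141.9 CPM, against 52.2 to 60.4 CPM) and Cyp7a1 (55.88 CPM, against 23.0 to 26.6 CPM). Replicate 1 was the lowest for Pmvk (18.34 CPM, against 20.5 to 20.6 CPM), Fads1 (467.2 CPM, against 566 to 583.5 CPM) and Kdr (17.23 CPM, against 22.0 to 22.6 CPM). Replicate 2 was the highest for Sdc2 (167.8 CPM, against 134 to 139 CPM).

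The change over time with LX-A3928 differed from that with another treatment, by the test of the difference itself, in 160 genes for PBS, 2634 for LX-A1656 and 2 for LX-A2003. On the log2 scale, the difference from PBS was -2.764 for Scarb1, 2.897 for 1110028F11Rik, 2.503 for Dnaic1, 2.15 for Fam198a and 2.105 for G6pc. It was -4.801 for Fhit, -4.139 for Immp2l, -3.555 for Naaladl2 and -3.492 for Dbp. The difference from LX-A1656 was 4.643 for G6pc, 4.144 for G0s2, 3.826 for Cyp7a1, 3.81 for LOC108167326 and 3.518 for Nnmt, and it was -8.829 for Cldn4, -7.769 for Slpi and -7.252 for Elovl7. The difference from LX-A2003 was -4.105 for Gadd45g and 2.656 for Nr0b2.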

How the results depend on the processing

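The 433 genes called between the times numbered 315 to 546 under 6 alternatives of scaling, filter, fit and tool, and 282 to 442 on leaving out 1 library. The Scarb1 change stayed called, from -2.80 to -2.47 without 1 library. The 160 genes that differed from PBS numbered 380 with only the compared libraries and 282 with DESeq2, against 114 to 197 without 1 library. The 2634 that differed from LX-A1656 numbered 2195 to 2801 without 1 library. The 2 that differed from LX-A2003 numbered 0 with no filter, 10 with DESeq2 and 0 to 16 without 1 library. The 10 called with PBS numbered 33 with only the compared libraries, 33 with DESeq2 and 2 to 33 without 1 library. The cause of these shifts was not tested. The median of the longest genes was -0.1693 with 5 bins of equal gene number, whose longest bin takes in shorter genes, and -0.7016 to -0.5392 without 1 library.

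Replicate numbers were entered as a block without evidence that they pair the samples. Same-numbered LX-A3928 libraries correlated at 0.0108, -0.0978, 0.0433 and -0.113 in their deviations from the group means, and 1 of the 4 correlated best with its own number. With the replicate block, 401 genes were called between the times, 162 differed from PBS, 2540.0 from LX-A1656 and 2 from LX-A2003, and 8 were called with PBS. With the block and only the compared libraries, the counts were 393, 327, 2806, 1 and 45.

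No direction reversed. Of 63 genes named for the time change, 35 kept their call in all 16 alternatives and 28 lost it in at least 1, 15 of them without 72 h replicate 4. The fitted changes of genes with libraries at 0 counts, such as Fhit, depend on the prior count. Precision is limited by 4 libraries a group. Whether the libraries are separate animals, and at what hour they were taken, is not given.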
